A study of Danio rerio with 6 samples.

Results

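The narrowest peaks of 6 ATAC-seq peak lists from zebrafish larval heart muscle cells were examined, namely all peaks on chromosomes 1 to 25 that were narrower than 200 bp. They were chosen by width, taken as the end minus the start of each peak, and numbered 5352 of the 100305 peaks in the 6 lists, or 5.34%. Of these, 4195 came from the 3 control libraries and 1157 from the 3 libraries that overexpressed wt1b.

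In ATAC-seq, the transposase Tn5 cuts and tags DNA that is not wrapped on nucleosomes, and a peak marks a stretch where such cuts pile up. Active promoters and enhancers usually give peaks as wide as the gap in the nucleosome array that bound factors hold open. The width of a called peak also depends on the peak caller, which decides where a stretch of signal ends and whether neighbouring stretches are joined. wt1b is one of the zebrafish genes for the zinc-finger transcription factor WT1, which in the heart is known chiefly from the epicardium, the outer cell layer.

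Control fish carried the UAS transgene Tg(eGFP:5xUAS:RFP; gcryst:cerulean)cn15. Fish of the experimental line had Tg(eGFP:5xUAS:wt1b; gcryst:cerulean)cn15 in its place, and the labels give the same allele name to both. All fish, controls included, also carried Tg(myl7:Gal4)cbg2Tg, in which the yeast activator Gal4 is driven by the promoter of myl7, a heart muscle gene, so both UAS transgenes depended on the activity of that promoter. GFP-positive cells were sorted at 5 days after fertilisation from fish of strain AB and are labelled cardiomyocytes. That label was not checked against marker genes, because no annotation in the coordinates of the lists was used here. How many larvae went into a library, and whether replicates came from separate clutches, is not given in the labels, so p-values measure the spread between these libraries only.

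Every list holds peaks called separately in 1 library, with a whole-number score that is limited to 1000. The lists held 29887, 29561 and 23334 peaks in control replicates 1 to 3 and 9310, 4122 and 4091 in wt1b replicates 1 to 3, and the number of reads behind them is unknown. All 5352 narrow peaks had the limiting score. Among peaks below the limit, the score times the width divided by 1000 was at least 199.8 in every list, and none of them was narrower than 200 bp. If that floor held for all peaks, a peak under 200 bp could be listed only at the limiting score. Whether it did was not tested. How far the narrow peaks rose above the score limit is not recorded. Just inside the width limit, from 190 to under 200 bp, the control lists held 182, 276 and 105 peaks, all at the score limit. Just outside it, from 200 to under 210 bp, they held 259, 352 and 145, of which 94.6%, 90.1% and 88.3% were at the limit. The wt1b lists held 91, 42 and 47 peaks just inside and 116, 53 and 39 just outside, the latter at the limit in 93.1%, 92.5% and 97.4% of cases. There was thus no gap in width between the narrow peaks and the next wider ones.

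Narrow peaks made up 4.29% (exact 95% binomial interval 4.06% to 4.53%), 7.24% (6.95% to 7.54%) and 3.31% (3.09% to 3.55%) of the lists of control replicates 1, 2 and 3. In wt1b replicates 1, 2 and 3 they made up 5.83% (5.36% to 6.33%), 8.32% (7.50% to 9.21%) and 6.62% (5.88% to 7.43%). Control replicate 2 lay among the wt1b libraries, so the groups overlapped. Control libraries averaged 4.95% ± 2.04 (SD, n = 3) and wt1b libraries 6.93% ± 1.27 (SD, n = 3), a difference of 1.98 percentage points that was within the spread between control replicates (exact two-sided permutation p = 0.3, adjusted p = 0.4 over 4 comparisons, smallest possible raw p 0.1). With a limit of 150 bp the difference changed sign, to -0.62 points (exact permutation p = 0.4). In number, narrow peaks were fewer in every wt1b list, at 543, 343 and 271 against 1282, 2140 and 773, as were peaks of all widths. Among the peaks at the score limit, narrow ones held 13.6% to 20.9% in control and 13.7% to 23.1% in wt1b lists. They covered 1.00% to 2.67% of the base pairs of the control peaks and 2.07% to 2.96% of those of the wt1b peaks. On unplaced scaffolds, outside the comparisons, peaks under 200 bp were 4.04% to 9.63% of control and 5.15% to 6.67% of wt1b peaks.

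The widths within the narrow class differed between the lists. No peak in any list was narrower than 100 bp. Exactly 100 bp was the width of 172, 77 and 39 peaks in control replicates 1, 2 and 3, or 13.4%, 3.60% and 5.05% of their narrow peaks, and of no peak in the 3 wt1b lists. The narrowest wt1b peaks measured 101, 108 and 106 bp in replicates 1, 2 and 3. Control replicate 1 was the extreme, with 32.0% of its narrow peaks under 110 bp, against 12.7% and 15.1% in control replicates 2 and 3, while wt1b replicates ranged from 0.369% to 1.29%. The median narrow width was 134, 150 and 150 bp in control and 163, 162 and 166 bp in wt1b libraries, and the groups did not overlap. Because width chose these peaks, no test was made of this difference.

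**Figure D1:**
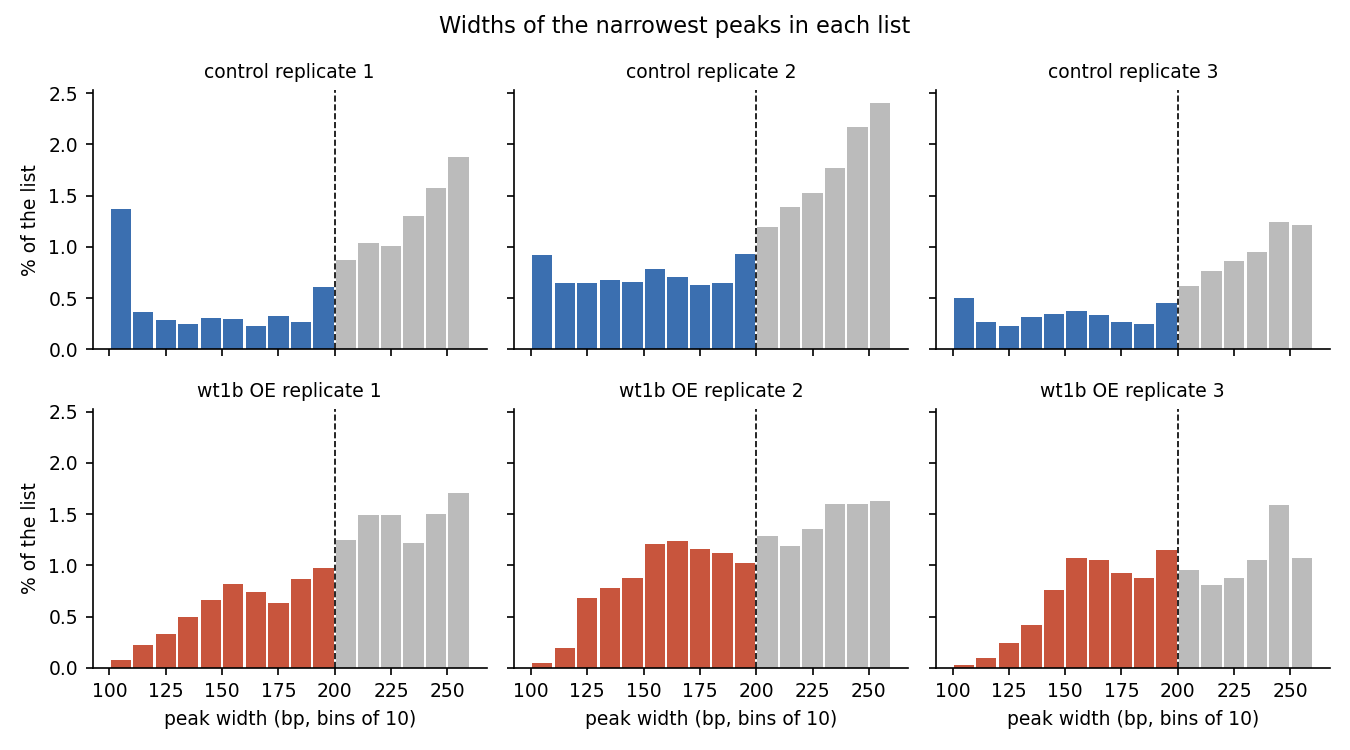
Share of each list (vertical axis, % of the peaks on the 25 chromosomes) in width bins of 10 bp (horizontal axis) for each of the 6 libraries; coloured bars are the peaks under 200 bp, grey bars the next wider ones, and the dashed line is the limit. The control lists have a bar at 100 to 109 bp that holds 410, 271 and 117 peaks in replicates 1 to 3, where the wt1b lists hold 7, 2 and 1.

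Narrow peaks came close to other peaks of their own list. The distance to the nearest wider peak of the same list was measured from edge to edge, and no 2 peaks of a list were 100 bp apart or less. A wider peak lay within 1000 bp of 412 of 1282, 789 of 2140 and 296 of 773 narrow peaks in control replicates 1, 2 and 3, which is 32.1%, 36.9% and 38.3%. In wt1b replicates 1, 2 and 3 this held for 276 of 543, 132 of 343 and 99 of 271, which is 50.8%, 38.5% and 36.5%. Of all peaks in the 6 lists, 13.5% had a wider neighbour at this distance. Against the peaks of 200 bp and more of the same list, the share was 26.4 percentage points greater on average (38.9% against 12.5%) and greater in 6 of 6 libraries (exact sign-flip permutation p = 0.03125, the smallest possible, and the same after adjustment over 2 comparisons). It was 19.3 points greater than among wider peaks at the score limit, and 11.1 points greater than among peaks of 200 to under 250 bp at the limit, a comparison added after the data were seen (exact permutation p = 0.03125 in both). For peaks of 200 to under 250 bp at the limit the share was 20.6%, 27.6% and 27.2% in control and 25.9%, 36.8% and 28.4% in wt1b replicates 1 to 3. The excess of narrow peaks over them was thus largest in wt1b replicate 1 and small in wt1b replicate 2. Between control (35.8% ± 3.22, SD, n = 3) and wt1b libraries (41.9% ± 7.75, SD, n = 3) the shares of narrow peaks overlapped (exact permutation p = 0.4, adjusted p = 0.4). Without wt1b replicate 1 the difference between the groups fell from 6.18 to 1.74 points. Within 5000 bp it was -0.35 points, and with a width limit of 150 bp it was 17.3 points. With a width limit of 250 bp, the excess of narrow over wider peaks was 13.2 points.

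Most of these neighbours were very near. The wider peak lay no more than 200 bp away for 20.4%, 24.5% and 27.3% of the narrow peaks of control replicates 1 to 3 and for 37.4%, 29.2% and 28.8% of those of wt1b replicates 1 to 3. Beyond 500 and up to 1000 bp the shares were 0.738% to 3.51% over the 6 libraries. The median distance over all narrow peaks was 6637, 5597 and 5312 bp in control and 675, 17876 and 16704 bp in wt1b replicates 1 to 3. From one wider peak to the next the median was 11855, 11443 and 13480 bp in control and 25310, 58349 and 63099.5 bp in wt1b replicates 1 to 3. Narrow peaks thus lay nearer to a wider peak than wider peaks did to each other in all 6 lists. The nearest wider peak, where it lay within 1000 bp, had a median width of 319 to 339.5 bp in control and 308 to 312 bp in wt1b lists, below the median of all wider peaks (386 to 468 bp).

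When narrow neighbours were counted too, a comparison added after the data were seen, the share was nearly the same in every library. Another peak of the list lay within 1000 bp of 60.5%, 61.3% and 63.5% of narrow peaks in control replicates 1 to 3 and of 64.6%, 61.5% and 60.1% in wt1b replicates 1 to 3, although the lists differed severalfold in length. The mean was 61.9% ± 1.78 (SD, n = 6 libraries), against 14.8% ± 1.96 for wider peaks and 24.8% ± 3.31 for wider peaks at the score limit, and 16.6% over all peaks. Narrow peaks had the greater share in 6 of 6 libraries in both comparisons (exact sign-flip permutation p = 0.03125, the smallest possible). The share was not computed for peaks of 200 to under 250 bp at the limit, the class nearest in width. Against that class the excess near a wider peak was 11.1 points, below the 19.3 points against all wider peaks at the limit.

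**Figure D2:**
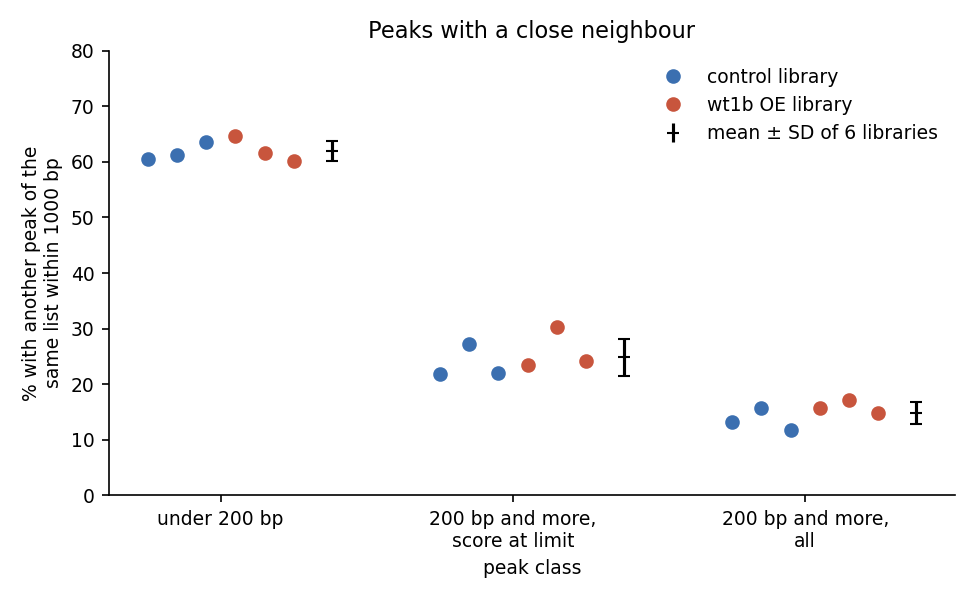
Share of peaks with another peak of the same list within 1000 bp (vertical axis, %) for narrow peaks, wider peaks at the score limit and all wider peaks (horizontal axis); each point is a library and the bar is the mean ± SD of the 6. Narrow peaks sit between 60.1% and 64.6%, above both wider classes in every library, with control and wt1b libraries intermingled.

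Among these neighbours were pairs of narrow peaks that stood apart from all other peaks by more than 1000 bp. There were 172, 256 and 96 such pairs in control replicates 1 to 3 and 36, 38 and 32 in wt1b replicates 1 to 3, 630 in all, which took in 23.9% to 26.8% of the narrow peaks of a control library and 13.3% to 23.6% of those of a wt1b library. The gap inside a pair had a median of 152.5 to 201 bp in control and 130 to 169.5 bp in wt1b lists, and the whole pair spanned a median of 441.5 to 494.5 bp and 484 to 531.5 bp. Wider peaks of the same lists had median widths of 386 to 468 bp. Of the 630 pairs, 333 overlapped a peak of another library, 33.7% to 53.1% of the pairs of a control library and 94.4% to 100% of those of a wt1b library. All peaks differed in the same direction, as 32.7% of control and 80.3% of wt1b peaks overlapped another library. A single peak of another library reached across both members at 206 pairs, 22.1% to 31.3% in control and 56.3% to 76.3% in wt1b libraries. Wider peaks were not examined in this way. Pairs of wt1b libraries were searched for in longer lists, so the shares of pairs were not compared between the groups.

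The same was seen for narrow peaks beside a wider peak. Of the 2004 narrow peaks with a wider neighbour within 1000 bp, 1234 overlapped a wider peak of another library. At 944 of those (76.5%), that peak of the other library also overlapped the neighbour, so that 1 interval in one list corresponded to 2 or more in the other. Among narrow peaks with a wider neighbour this joining peak was found for 40.0%, 38.8% and 41.2% in control replicates 1 to 3 and for 65.9%, 78.0% and 66.7% in wt1b replicates 1 to 3, whose peaks were searched for in longer lists. The neighbours mostly lay no more than 200 bp away, and wider partners of all narrow peaks measured 506 bp in the median. A partner of that width over the narrow peak can easily reach such a neighbour as well. No joining share for wider peaks or for all peaks was computed to set beside these.

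Recurrence over libraries was then measured as overlap by at least 1 bp with any peak of another library. In control replicates 1, 2 and 3, 459 of 1282 (35.8%), 931 of 2140 (43.5%) and 405 of 773 (52.4%) narrow peaks overlapped a peak of at least 1 other library. In wt1b replicates 1, 2 and 3, 466 of 543 (85.8%), 333 of 343 (97.1%) and 255 of 271 (94.1%) did. All wt1b shares were above all control shares. Control libraries averaged 43.9% ± 8.30 (SD, n = 3) and wt1b libraries 92.3% ± 5.84 (SD, n = 3) (exact two-sided permutation p = 0.1, the smallest possible, adjusted p = 0.2). The background differed in the same way, since 32.7% of all control peaks and 80.3% of all wt1b peaks overlapped another library. A wt1b peak is searched for in 3 long control lists, and a control peak in the 2 other control lists and 3 short wt1b lists. Each list searched was then reduced to 4091 peaks by score, and peaks of equal score were taken in order of width, widest first. In the control lists 6120, 10461 and 5697 peaks shared the limiting score, so there width alone decided which were kept. The shares of narrow peaks became 24.1%, 28.1% and 34.4% in control and 60.6%, 78.4% and 79.3% in wt1b libraries. Wider peaks searched for in the same way gave 14.8%, 21.1% and 24.2% in control and 54.1%, 70.1% and 71.9% in wt1b libraries, so the gap between the groups was there for both widths.

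Compared with wider peaks of the same list, the position of the narrow ones depended on the score of the wider peaks. Narrow peaks recurred more often than all wider peaks, by 11.0 percentage points on average and in 6 of 6 libraries (68.1% against 57.1%, exact sign-flip permutation p = 0.03125, adjusted p = 0.03125). Against wider peaks at the score limit the direction turned: narrow peaks recurred less often by 13.5 points (difference -13.5, exact permutation p = 0.03125). Against the peaks of 200 to under 250 bp at the limit the difference was -2.31 points (exact permutation p = 0.09375). It was also negative, at -8.51 points, when the overlap had to span 50% of both peaks, a rule that a narrow and a wide peak at one site often cannot meet. Presence in all 5 other libraries went the other way in 5 of 6 libraries. It was 4.52%, 2.06% and 2.98% for narrow and 4.51%, 4.74% and 5.78% for wider peaks in control replicates 1 to 3, and 9.21%, 24.5% and 19.9% against 14.7%, 33.7% and 33.7% in wt1b replicates 1 to 3, a difference that was not tested. Libraries are searched in one another here, so the 6 differences are not independent of each other.

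**Figure D3:**
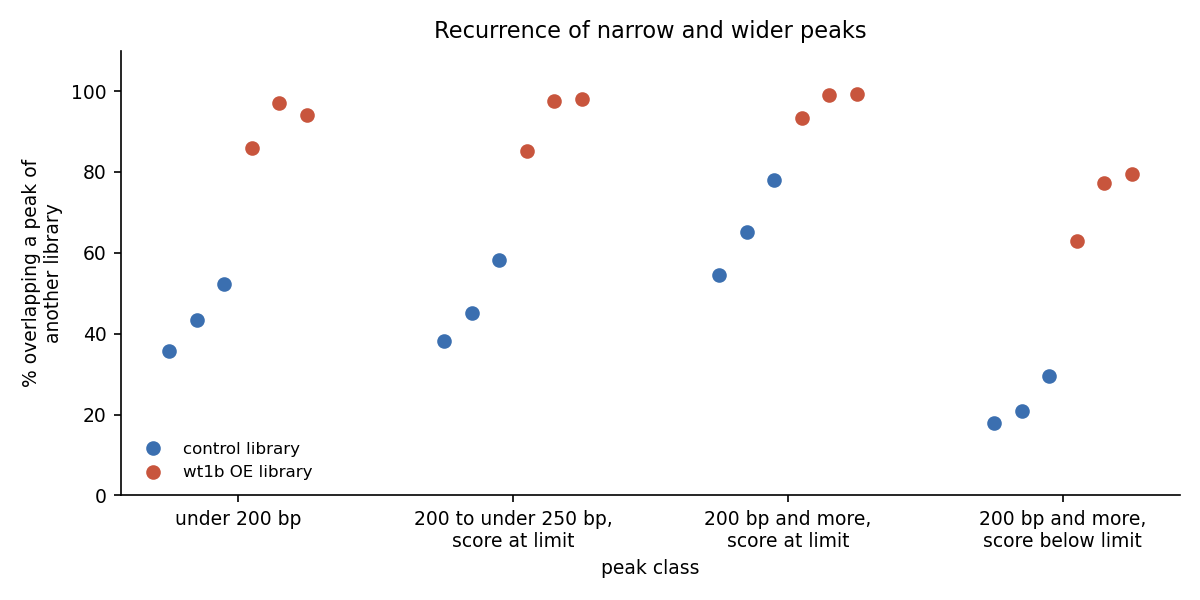
Share of peaks that overlap a peak of at least 1 other library (vertical axis, %) in 4 classes of width and score (horizontal axis), with 1 point per library. In each library the narrow peaks lie above the wider peaks below the score limit and below all wider peaks at the limit, close to those of 200 to under 250 bp at the limit.

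Within the narrow class of the control lists, recurrence was lowest in the narrowest peaks and rose with width. Of the peaks of exactly 100 bp, 11.0%, 13.0% and 17.9% overlapped a peak of another library in control replicates 1, 2 and 3. Above 100 and below 150 bp the shares were 31.5%, 39.2% and 43.4%, and from 150 bp up they were 49.1%, 49.5% and 63.9%. In wt1b replicates 1, 2 and 3 the shares were 86.2%, 97.2% and 96.8% below 150 bp. From 150 bp up they were 85.6%, 97.0% and 93.3%, so no rise with width was seen. The wt1b lists held no peak of 100 bp, so the class with the lowest shares in control was missing there. Their peaks were also searched for in longer lists, and shares this high below 150 bp leave little room for a rise. Whether the trend with width differed between the groups was not tested. In none of the control lists did a peak of 100 bp meet one of 100 bp in another list. Peaks of 100 bp nonetheless had neighbours: another peak of the same list lay within 1000 bp of 65.7%, 75.3% and 79.5% of them. These were more often narrow than wider peaks. A narrow peak lay within 1000 bp of 43.6%, 53.2% and 64.1% of the peaks of 100 bp, and a wider peak of 24.4%, 24.7% and 15.4%. Leaving them out changed the difference in recurrence between the groups only from 48.4 to 46.2 points.

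Where a narrow peak recurred, the other library mostly called a wider peak there, and wider peaks also make up most of every list. A peak of 200 bp or more in at least 1 other library overlapped 33.9%, 39.4% and 46.1% of the narrow peaks of control replicates 1 to 3, and 32.1% of all control peaks pooled. It overlapped 77.2%, 91.0% and 84.1% of those of wt1b replicates 1 to 3, and 79.0% of all wt1b peaks pooled. The means were 39.8% ± 6.11 and 84.1% ± 6.90 (SD, n = 3 each), without overlap of the groups (exact two-sided permutation p = 0.1, the smallest possible, adjusted p = 0.2). Taken library by library, the shares over all peaks were 24.2%, 34.2% and 39.5% in control and 74.2%, 83.9% and 84.9% in wt1b libraries, so narrow peaks were above the peaks of their own list in 5 libraries and slightly below in wt1b replicate 3. The gap between the groups was thus present for all peaks. Wider peaks at the score limit, which all narrow peaks share, gave 54.1%, 64.1% and 76.7% in control and 92.7%, 98.4% and 99.0% in wt1b libraries. Peaks of 200 to under 250 bp at the limit gave 37.5%, 43.1% and 55.0% in control and 83.7%, 94.8% and 96.3% in wt1b libraries. Narrow peaks were below both of these classes in every library, which was not tested. A narrow peak in another library was found for 10.5%, 11.3% and 19.8% of control and 37.2%, 44.3% and 48.0% of wt1b narrow peaks. Over all peaks these shares were 2.61%, 3.69% and 5.15% in control and 10.5%, 13.1% and 14.7% in wt1b libraries, also higher in wt1b. In every library narrow peaks thus met a narrow peak elsewhere more often than all peaks did. In 1.95% to 6.34% of control and 6.12% to 9.96% of wt1b narrow peaks the other libraries had narrow peaks only.

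The direction of the search mattered at the level of single pairs of lists. Narrow peaks of control libraries met a wider peak of a given wt1b list in 7.18% to 18.8% of cases and of a given control list in 14.9% to 28.8%. Narrow peaks of wt1b libraries met a wider peak of a given control list in 27.8% to 65.3% of cases and of a given wt1b list in 19.3% to 55.0%. Wider peaks of control libraries met a wider peak of a given wt1b list in 7.28% to 21.7% of cases and of a given control list in 16.5% to 29.0%. For wider peaks of wt1b libraries the shares were 41.4% to 70.6% against control and 27.8% to 65.4% against wt1b lists. The dependence on direction was thus not particular to narrow peaks. Each wt1b library had its lowest share against control lists in control replicate 1, at 27.8%, 39.7% and 36.5% for wt1b replicates 1, 2 and 3, although that was the longest list. Control replicate 1 stood apart in that respect. Without it, the difference between the groups in the share with a wider peak elsewhere was 43.1 points, against 44.3 with it.

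**Figure D4:**
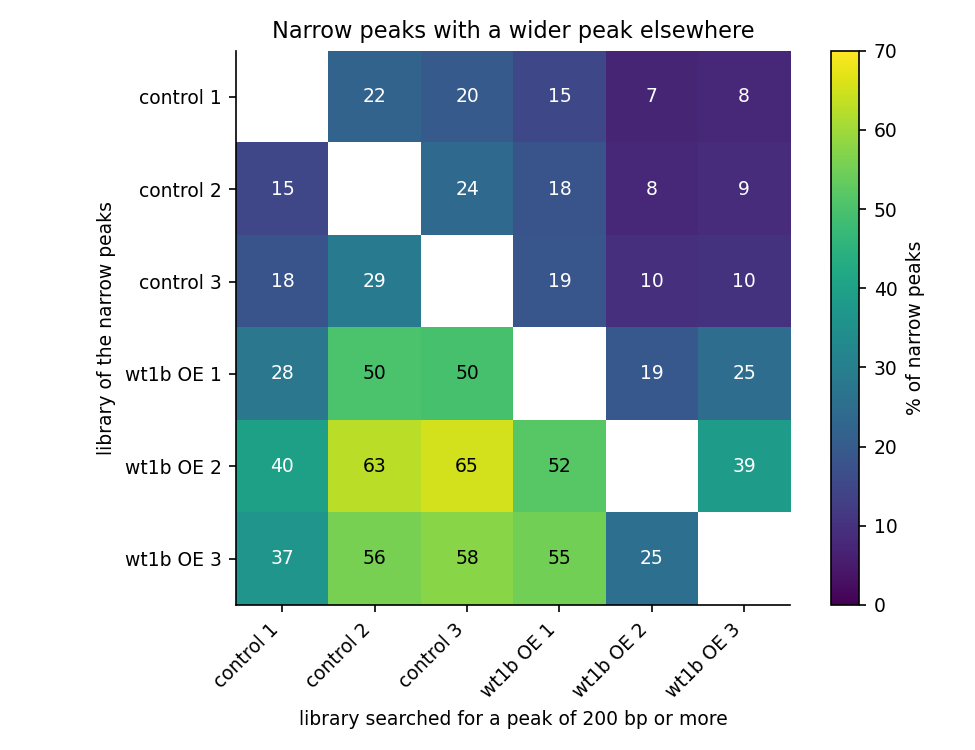
Share of the narrow peaks of each library (rows) that overlap a peak of 200 bp or more in each other library (columns), in % by colour and number. Rows of wt1b libraries are highest in the columns of control replicates 2 and 3, reaching 65.3%, and rows of control libraries are lowest in the columns of wt1b replicates 2 and 3, down to 7.18%.

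Wider peaks at these sites resembled those met by wider peaks in width. Over 5605 pairings of a narrow peak with a wider peak of another library, the wider peak had a median width of 506 bp (quartiles 364 and 662 bp), 3.22 times the width of the narrow one. Narrow wt1b peaks met control peaks of 523 bp in the median, and narrow control peaks met wt1b peaks of 496 bp. The median was 485 bp among wt1b lists and 506 bp among control lists. Wider peaks that met wider peaks of another library were 459 to 541 bp wide in the median. The narrow peak lay wholly inside the wider one in 64.6% of pairings. Of the wider partners, 9.87% measured 200 to under 250 bp. In 35 pairings the partner was 1500 bp wide or more.

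Merged over all libraries, the narrow peaks occupied 4784 sites. A narrow peak was called in 1 library at 4340 of them (90.7%), in 2 at 349, in 3 at 71, in 4 at 19 and in 5 at 5, and in all 6 at none. Any peak, narrow or wide, was called in a single library at 2503 sites (52.3%) and in all 6 libraries at 212 (4.43%). Peaks of all widths merged into 71293 regions, of which 59131 came from 1 library only and 1287 had peaks from every library. An origin in 1 library was thus more common among all regions than among the sites. Regions are merged over peaks of all widths and sites over narrow peaks only, which limits this comparison. Among merged regions of all peaks, 6.26% held a narrow peak. This held for 25.4% (327 of 1287) of the regions called in all 6 libraries, 15.0% of those called in 2 to 5 libraries and 4.23% of those called in 1. A region with more libraries has more peaks that can be narrow, so these shares are not comparable at face value. Sites on chromosome 4 were 3.55% of the total, and all merged regions there were 3.48%. Over the 25 chromosomes, between 4.68% and 6.10% of the pooled peaks were narrow.

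Of the 4784 sites, 3765 (78.7%) had narrow peaks in control libraries alone, 743 in wt1b libraries alone and 276 in both groups. Control libraries also held 4195 of the 5352 narrow peaks, and 90.7% of sites had a narrow peak in 1 library only. No share over all merged regions called in 1 group alone was computed to set beside this split. It was therefore not read as a difference between the groups. At 613 of the 743 wt1b sites (82.5%, 95% interval 79.6% to 85.2%) a control library had a wider peak, and at 191 (25.7%) all 3 did. At 782 of the 3765 control sites (20.8%, 19.5% to 22.1%) a wt1b library had a wider peak, and at 96 (2.55%) all 3 did. Control sites were searched for in the shorter lists, so the shares were not compared between groups. For a wider peak in all 3 libraries of the other group, no share over all peaks was computed to set beside these. No peak of the other group was present at 130 of the 743 wt1b sites and at 2983 of the 3765 control sites. Peak by peak, a wider peak of the other group overlapped 19.3%, 24.3% and 27.2% of narrow and 14.9%, 21.4% and 25.0% of all peaks in control replicates 1 to 3. In wt1b replicates 1 to 3 it overlapped 74.2%, 86.0% and 80.1% of narrow and 72.4%, 80.7% and 82.2% of all peaks, so the narrow shares were near those of all peaks. For wider peaks at the score limit these shares were 42.1%, 48.0% and 61.4% in control and 91.8%, 97.6% and 98.2% in wt1b libraries. The narrow shares were thus below those of wider peaks with the same score in every library. Any peak of the other group overlapped 15.2% to 25.7% of all control and 73.8% to 83.8% of all wt1b peaks.

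A call in all 3 libraries of one group and none of the other was rare. It was made at 110 sites for control (2.30%), where 0.825% of all merged regions met the same criterion. A site spans narrow peaks only and a merged region spans peaks of all widths, so these shares are not comparable at face value. Of the 588 control-only regions among all merged regions, 93 (15.8%) held a narrow peak. Of all regions called in 2 to 5 libraries, 15.0% did. At 1 site (0.0209%) the call was made for wt1b, and 0.0112% of all regions met the criterion. None of the 8 wt1b-only merged regions held a narrow peak, so the merged region around that site also holds a control peak that does not overlap the site. Leaving out 1 library moved these counts, since fewer libraries then had to meet the criterion: control sites numbered 315 without control replicate 1, 243 without control replicate 3 and 210 without wt1b replicate 1. The number of wt1b sites was 3 without control replicate 1 or wt1b replicate 1, 23 and 15 without control replicates 2 and 3, and 16 and 9 without wt1b replicates 2 and 3. With a width limit of 150 bp the control and wt1b sites numbered 38 and 0, and with 250 bp 239 and 2. Requiring a narrow peak in each of the 3 libraries left 2 control sites and no wt1b site. These were on chromosome 6 from 39835868 to 39836042, with widths of 164, 175 and 168 bp in control replicates 1 to 3, and on chromosome 9 from 38399738 to 38399988, with 186, 185 and 196 bp. At the next site called in control libraries alone, on chromosome 2 from 33926760 to 33926998, replicate 3 exceeded the limit (191, 197 and 405 bp). The wt1b site was on chromosome 14 from 16151356 to 16151514, where the peaks measured 741, 539 and 159 bp in wt1b replicates 1 to 3, so only replicate 3 was narrow. A single site called in 3 of 3 against 0 of 3 libraries cannot pass a test of its own.

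The sites with the most narrow calls combined both groups. Positions are as in the lists, counted from 1, and the submitters' processing notes name the builds GRCz11 and danRer11. Site 1, on chromosome 1 from 54947977 to 54948164, had peaks of 113, 166 and 427 bp in control replicates 1 to 3 and of 173, 170 and 166 bp in wt1b replicates 1 to 3. Only control replicate 3 exceeded the limit there. Site 2, on chromosome 14 from 1201402 to 1201603, had 556, 170 and 121 bp in control and 182, 113 and 176 bp in wt1b libraries, with control replicate 1 the exception.

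Sites 3 to 5 were narrow in every library that called them. Site 3, on chromosome 3 from 62628320 to 62628489, had 158, 170 and 158 bp in control replicates 1 to 3, 158 bp in wt1b replicates 1 and 2 and no peak in wt1b replicate 3. Its last base is also the highest position reached by any peak on chromosome 3. Site 4, on chromosome 13 from 35528140 to 35528329, had 126, 150 and 164 bp in control libraries, 190 and 139 bp in wt1b replicates 1 and 3 and no peak in wt1b replicate 2. Site 5, on chromosome 20 from 34754531 to 34754703, had 121 and 157 bp in control replicates 2 and 3, none in control replicate 1, and 143, 173 and 152 bp in wt1b replicates 1 to 3.

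Sites 6 to 8 were narrow in 4 libraries and called in all 6. Site 6, on chromosome 1 from 19094127 to 19094313, ran from 150 to 178 bp in 4 libraries and reached 1187 bp in control replicate 3 and 875 bp in wt1b replicate 1. Site 7, on chromosome 3 from 62287800 to 62287992, measured 242 bp in control replicate 1, 538 bp in wt1b replicate 2 and 139 to 189 bp elsewhere. Site 8, on chromosome 4 from 12012920 to 12013129, measured 388 bp in control replicate 3, 201 bp in wt1b replicate 1 and from 129 bp to just under the limit elsewhere. At none of the 8 sites did the widths separate control from wt1b libraries.

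**Figure D5:**
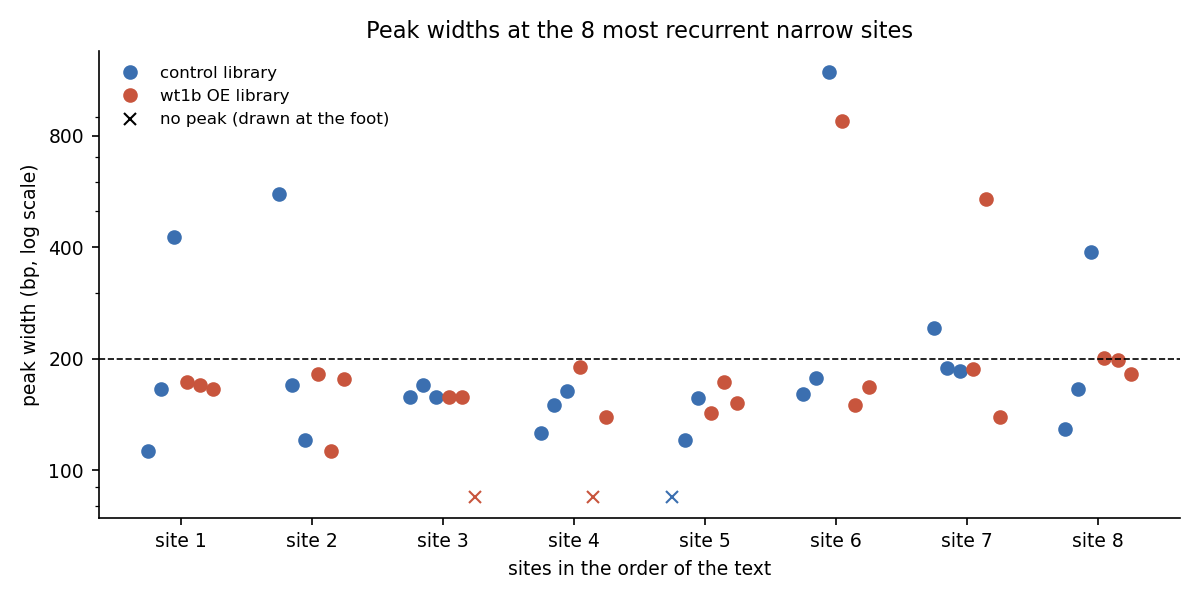
Width of the peak in each library (vertical axis, bp, log scale; the widest peak where several overlap) at the 8 sites with the most narrow calls (horizontal axis); crosses at the foot mark a library with no peak and the dashed line is 200 bp. At sites 1, 2 and 6 to 8, 1 or 2 libraries lie above the line, and at sites 3 to 5 every peak lies between 121 and 190 bp.

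Narrow calls in 2 libraries rarely had the same bounds. Of 726 overlapping pairs of narrow peaks from different libraries, 12 had the same start and end and 155 had both ends within 10 bp. A site that was narrow in several libraries enters as several pairs, so these pairs are not independent. No such count was made for wider peaks.

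Named next are sites with a narrow peak in 1 group, chosen for the mean width of the peaks in all 3 libraries of the other group. On chromosome 10 from 76082 to 76210 and from 76393 to 76497, control replicate 1 had separate peaks of 129 and 105 bp. A single peak covered both in each other library, of 1405 and 1379 bp in control replicates 2 and 3 and of 819, 1647 and 985 bp in wt1b replicates 1 to 3. On chromosome 16 from 15656230 to 15656385, control replicate 2 had 156 bp, control replicates 1 and 3 had 1721 and 1068 bp, and wt1b replicates 1 to 3 had 502, 1150 and 1766 bp. In each case the narrow library differed from its own group as well.

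In the other direction, on chromosome 24 from 12415934 to 12416132, wt1b replicates 2 and 3 had 197 and 128 bp, wt1b replicate 1 had 845 bp, and control replicates 1 to 3 had 1065, 1041 and 1423 bp. On chromosome 12 from 15566485 to 15566615, wt1b replicate 2 had 131 bp, wt1b replicate 1 had 760 bp and wt1b replicate 3 no peak, while control replicates 1 to 3 had 1403, 1267 and 1484 bp. On chromosome 17 from 11419116 to 11419300, wt1b replicate 2 had 185 bp, wt1b replicates 1 and 3 had 828 and 827 bp, and the control libraries had 1200, 812 and 1472 bp. These sites were picked for the width in the other group, so the differences are a description. The narrowest control peaks by position, each of 100 bp in control replicate 1, were on chromosome 1 from 6679 to 6778, from 1181147 to 1181246 and from 4773857 to 4773956, with no peak in any other library. The narrowest wt1b peaks were all in replicate 1. They lay on chromosome 18 from 3140636 to 3140736, then on chromosome 1 from 8508530 to 8508631, and lastly near the start of chromosome 8 from 964 to 1067, each called in 1 or 2 other libraries and each 119 to 136 bp from a wider peak of its own list.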

How the data were processed

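ATAC-seq peak lists of 3 control and 3 wt1b libraries were used, 1 list per library. Each deposited list has 6 columns without a header, and the score, a whole number per peak, is the value the authors deposited. The submitters' processing notes name, without roles or settings, Trimmomatic, Bowtie2, SAMtools, Picard and Genrich, the last a peak caller, and the builds GRCz11 and danRer11. Groups and replicate numbers came from the sample titles.

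Widths, overlaps (at least 1 bp) and distances were computed from the positions with Python 3.11.15, numpy 2.4.6 and pandas 2.3.3, and checked on simulated lists and against bedtools. Groups were compared by exact two-sided permutation of libraries, narrow with wider peaks by exact sign flips over 6 libraries, with Benjamini-Hochberg adjustment within each family. Intervals on shares are exact Clopper-Pearson 95% intervals and cover counting error only. Named sites were those with the most narrow calls, the narrowest peaks of each group, those with the widest peaks in all libraries of the other group, and those called in 1 group alone. Members, lists and tests were chosen with earlier results of these data known. No genome sequence was used here, so planned GC, repeat, promoter and motif results were not run.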

Additional observations from a re-analysis of the deposited data

Results flagged for a closer look

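Outliers were not looked for, since a group has 3 libraries. For 8 shares, the difference of narrow minus wider peaks was compared in sign between the groups. One differed: the share of peaks at which another library of the same group has a peak of 200 bp or more. In control replicates 1, 2 and 3 it was 29.8%, 31.3% and 37.4% for narrow and 22.0%, 30.0% and 35.1% for wider peaks. In wt1b replicates 1, 2 and 3 it was 35.7%, 63.6% and 63.1% for narrow and 38.5%, 69.3% and 69.9% for wider peaks. The mean difference was lower in wt1b libraries (wt1b minus control, -8.88 percentage points). This difference between the groups was not tested. Wider peaks at the score limit, which all narrow peaks share, gave 51.8%, 58.4% and 71.4% in control replicates 1, 2 and 3. In wt1b replicates 1, 2 and 3 they gave 64.1%, 92.1% and 93.8%. Narrow peaks were below these in every library, so against that class the sign did not differ between the groups.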

How the results depend on the processing

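The differences between groups in recurrence (46.5 to 54.6 points with any 1 library left out) and in the share with a wider peak elsewhere (41.2 to 47.7) kept their direction in all 14 alternatives each. All peaks differed in that direction too, at 32.7% in control and 80.3% in wt1b lists for recurrence and 32.1% and 79.0% for a wider peak elsewhere. The constant direction is thus not particular to narrow peaks. The lists searched stayed unequal in length in every alternative except that of equal list size, which gave 43.9 and 40.3 points. In that alternative the narrow peaks searched for still came from the full lists of unequal length, and width decided which control peaks were kept. It therefore does not remove every effect of list length. The narrow share (1.16 to 3.12 points without 1 library) reversed to -0.62 with a limit of 150 bp, and the share near a wider peak (1.74 to 8.89) to -0.35 within 5000 bp. No p under 0.1 could arise, so these tests say nothing about stability. Narrow minus wider recurrence (8.91 to 11.1 points, exact sign-flip p = 0.0625, the smallest possible with 5 libraries) reversed to -8.51 with overlap of 50%, to -13.5 against wider peaks at the score limit and to -2.31 against those of 200 to under 250 bp at the limit, an alternative chosen after the data were seen, as was leaving out peaks of 100 bp. Wider peaks at the limit have a score that all narrow peaks share. The nearness of narrow minus wider peaks was 24.1 to 27.6 points without 1 library (exact sign-flip p = 0.0625). Control-only and wt1b-only sites numbered 38 and 0 with a limit of 150 bp, 239 and 2 with 250 bp, and 2 and 0 where a narrow peak was needed in each library. Without 1 library they ranged from 122 to 315 (highest without control replicate 1) and from 3 to 23, as fewer libraries must meet the criterion.

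The replicate block gave differences of 1.98, 48.4, 44.3 and 6.18 points for the 4 comparisons of groups (exact sign-flip p = 0.25, 0.25, 0.25 and 0.75, smallest possible 0.25) and changed no call. Libraries of 1 number did not deviate together from their groups' means over the 4784 sites (r = -0.060, 0.024 and -0.054), so the numbers were not taken as pairs. Repeats of these results with GC content, repeat masking or promoters taken into account were not run. Read depth is unknown, so absence from a short list does not show closed chromatin.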
